A study of Drosophila melanogaster with 3 samples.

Results

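The Eip75B region of chromosome arm 3L held 49 of the 10337 peaks that the authors deposited for the Hox transcription factor Ultrabithorax (Ubx) in Drosophila S2-DRSC cells. Members were the peaks of 3L whose midpoint lay from 17.9 to 18.08 Mb in the dm3 build, a stretch of 180 kb. Arm 3L as a whole carried 2190 peaks. The stretch was chosen by its number of peaks in this same list, being already known as crowded. Its count, coverage, spacing and scores are therefore descriptions of 1 peak list and carry no test.

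Eip75B, also called E75, encodes an ecdysone-induced nuclear receptor related to the Rev-erb receptors of vertebrates. It is one of the early genes that the steroid hormone ecdysone switches on at the start of each moult, and its name comes from the chromosome puff it forms in salivary glands. Its protein binds heme and counteracts the receptor Hr3, and alternative promoters give isoforms that differ at their amino end. Ubx is a homeodomain protein that sets the identity of segments in the posterior thorax and anterior abdomen, including the haltere.

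The experiment recorded where Ubx binds once it is expressed in a cell line. S2-DRSC is a late-embryonic fly line, here with a stably integrated, HA-tagged Ubx (HA::Ubx), and all cells were exposed to 10 micromolar copper sulphate for 24 h. Chromatin was immunoprecipitated with an antibody against HA in 2 replicates, and 1 input sample was taken from the same transgenic line. The 3 samples all carried the transgene and the copper treatment, so the design has no group without Ubx. The labels do not state which promoter drove the transgene, nor whether the replicates came from separate cultures. Both replicates share 1 peak list, so no value below has a replicate error. The read depth behind the peaks is unknown.

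The gene name comes from the choice of the region and was not checked against a dm3 gene annotation. Which peaks lie at a promoter, in an intron or beyond the ends of Eip75B is therefore not given. In the Release 6 annotation, used here for names and gene order only, the nearest genes on either side of Eip75B are the long noncoding RNA CR45393 and the protein-coding CG44006. The nearest protein-coding gene on the left is CG5290. Release 6 places 4 annotated genes inside Eip75B, namely the noncoding CR45921 and CR45922 and the protein-coding CG32192 and CG42393.

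HA-Ubx peaks stood at 2.72 per 10 kb in the Eip75B region, against 0.881 per 10 kb over the rest of 3L, a ratio of 3.09. The region took up 0.736% of the span of the arm and held 2.24% of its peaks. The peaks covered 36025 bp, or 20.01% of the region, compared with 7.18% of the rest of the arm. The 180 kb directly to the left held 18 peaks that covered 5.79% of it. The 180 kb directly to the right held 13 peaks that covered 4.48%. The density of peaks was thus higher inside the region than in both flanks. Single strong peaks also occurred in the flanks. The highest left-flank score was 98.1, at 17733512 to 17734033, and the highest right-flank score was 110, at 18181584 to 18182340.

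**Figure D1:**
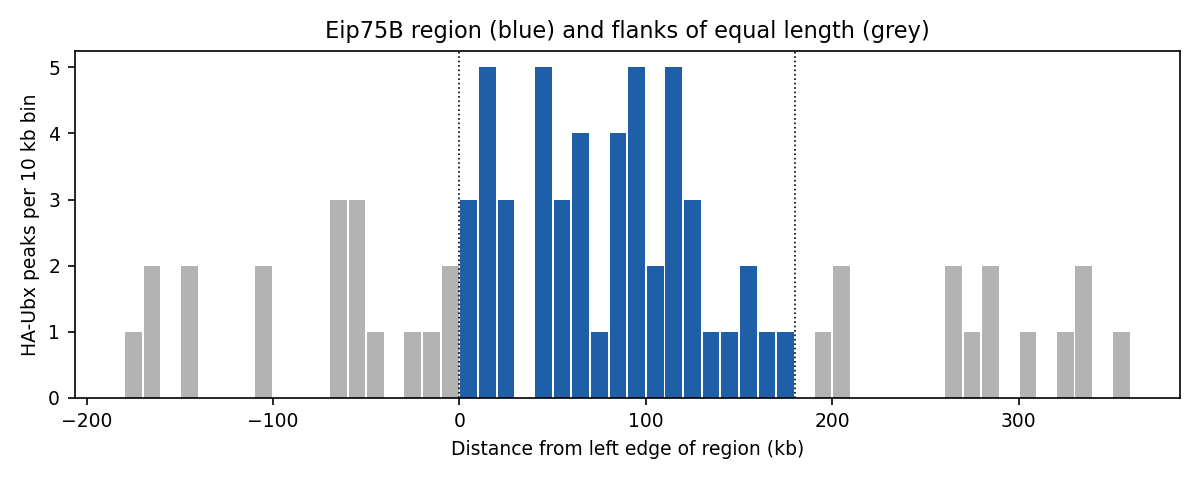
Number of HA-Ubx peaks per 10 kb bin (y axis) against distance from the left edge of the Eip75B region in kb (x axis). Blue bars are the 18 bins of the region, grey bars the flanks of 180 kb on each side, and dotted lines mark the edges; blue bars reach 5 peaks in 4 bins, and no grey bar exceeds 3.

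The peaks were spread over almost the whole region. Of its 18 bins of 10 kb, 17 held at least 1 peak, compared with 46.3% of the 2435 other bins of 3L. At least 3 peaks lay in 10 of the 18 bins, against 9.98% of the other bins. The fullest bins, with 5 peaks each, began at 17910001, 17940001, 17990001 and 18010001. Fuller single bins occurred elsewhere on the arm, where 17 bins held 6 or more peaks and the fullest held 8. The many well-filled bins of the region largely follow from the count by which it was chosen. Its fullest bins were not the fullest of the arm. Its only empty bin ran from 17930001 to 17940000.

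Coverage of the bins followed the number of peaks only in part. The most covered bin, from 17960001 to 17970000, held 4 peaks over 43.4% of its length. The bins from 17910001 to 17920000 and from 17940001 to 17950000 were covered to 37.2% and 37.7%. The other bins with 5 peaks, which began at 17990001 and 18010001, were covered to 35.95% and 24.65%. The bin that began at 17950001 held 3 peaks and was covered to 36.67%. Coverage fell to 4.63% and 2.67% in the last 2 bins, each with 1 peak.

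Peak density was uneven from left to right. The first 60 kb held 19 peaks with a median gap of 829.5 bp between the edges of neighbours, and the middle 60 kb held 21 with a median gap of 1256 bp. The last 60 kb, which began at 18020001, held 9 peaks with a median gap of 7465.5 bp. Coverage was 25.6% and 25.4% in the first and middle parts and 8.99% in the last. The 9 peaks of the last part had scores from 10.6, the lowest of all 49, to 86.1. Their median was 50.9, against 34.4 in the first part and 33.5 in the middle part, but this difference depended on where the region was divided. With a division at 18000001 the last 80 kb (16 peaks) had a median score of 35.6 and the first 100 kb (33 peaks) one of 34.4. The median width in the last 60 kb was 548 bp, compared with 633 bp in the first and 658 bp in the middle part.

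The peak score is a value deposited by the authors, and what it measures is not given in the labels or the file. Strong and weak, here and throughout, mean a high or a low score only. In the Eip75B region it ran from 10.6 to 101, with a median of 34.4 and an interquartile range of 24.7 to 59.1. Over the other 2141 peaks of 3L the median was 25.1, with an interquartile range of 16.5 to 40.3. In all, 35 of the 49 peaks (71.4%) scored above the median of the whole list, 24.9, compared with 50.4% of the other 3L peaks. For the top 10% of the list, which is a score above 56.8, the number was 14 of 49 (28.6%), against 11.4% of the other 3L peaks. These 14 peaks were not gathered at 1 place, with 5 in the first 60 kb, 5 in the middle 60 kb and 4 in the last, in 11 of the 18 bins.

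**Figure D2:**
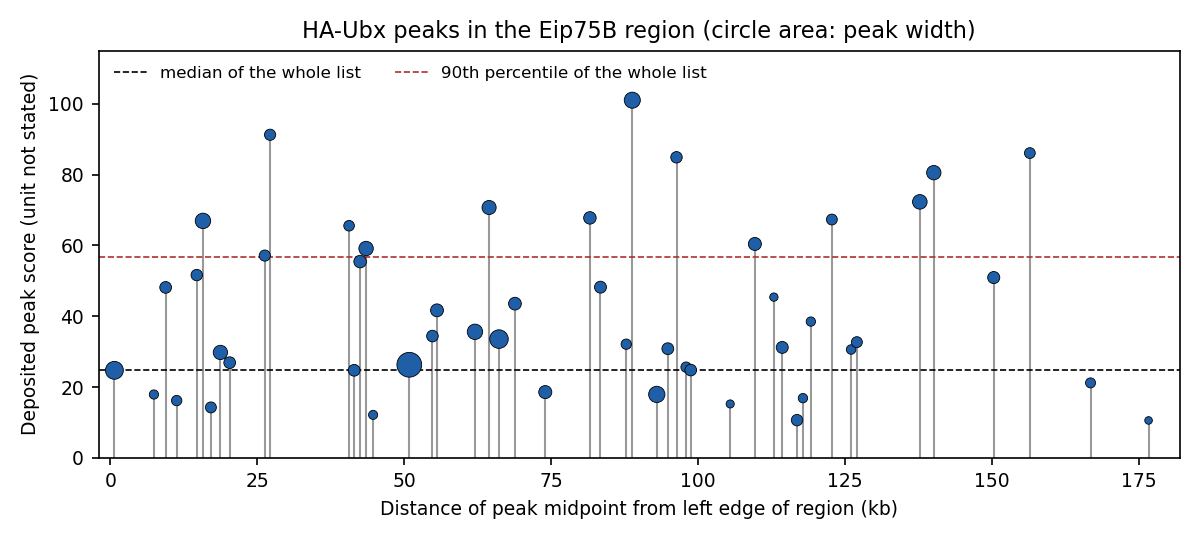
Deposited score of each of the 49 HA-Ubx peaks (y axis, unit not stated) against the distance of its midpoint from the left edge of the Eip75B region in kb (x axis), with circle area proportional to peak width. Dashed lines mark the median (24.9) and the 90th percentile (56.8) of the whole list; the 14 peaks above the upper line occur along the region up to 156 kb.

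The strongest peak of the Eip75B region lay near its middle, at 17988228 to 17989418. It measured 1191 bp, scored 101 and ranked 13th among the peaks of 3L and 67th in the list. A weaker peak of 493 bp with a score of 32.1 ended 185 bp to its left, at 17987550 to 17988042. The second strongest, at 17926885 to 17927464, measured 580 bp and scored 91.3, and it ranked 26th on the arm. It was the right-hand partner of a close pair whose left peak, at 17925991 to 17926565, scored 57.1. To its right followed the longest stretch without a peak in the region, 12896 bp, up to a peak at 17940361 to 17940880 with a score of 65.6. That stretch was thus flanked by peaks of the top 10% on both sides.

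The third strongest peak lay in the sparse right-hand part, at 18056220 to 18056757, with a width of 538 bp and a score of 86.1. It had no neighbour within 5000 bp, since the gaps to its left and right were 5543 bp and 9827 bp. The fourth, of 605 bp at 17996046 to 17996650, scored 84.9 and belonged to a run of 3 close peaks. The fifth, of 950 bp at 18039665 to 18040614, scored 80.6 and lay 1413 bp from a peak at 18037272 to 18038251 that scored 72.3. The 5 strongest peaks thus included both isolated and crowded ones, and their midpoints were spread from 27.2 to 156 kb from the left edge.

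The 3 widest peaks had scores near or below the median of the region. The widest, 2824 bp at 17949457 to 17952280, scored 26.3, close to the median of the list. The second, 1588 bp at 17965339 to 17966926, scored 33.5, and the third, 1476 bp at 17899941 to 17901416, scored 24.7. The strongest peak, with its 1191 bp, was the fifth widest. Widths over the 49 peaks ran from 267 to 2824 bp, with a median of 633 bp and an interquartile range of 520 to 788 bp. The rest of 3L had a median of 656 bp and a wider interquartile range of 445 to 1005 bp. Across the 49 peaks, which all come from 1 list, width and score gave Spearman's rho as 0.34 and Pearson's r as 0.099. For the other peaks of 3L the rho was 0.20.

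The widest and the third widest peak differed from the others in how their scores were written. Their scores had more than 5 decimals. Multiplied by 4 and by 3, respectively, the scores gave numbers with 5 decimals, as a mean of 4 or of 3 such scores would. The other 47 scores had at most 5 decimals. In the whole list 328 peaks (3.17%) had such longer scores, and their median width was 1238.5 bp, against 602 bp for the rest. Whether these peaks were built from several narrower ones is not stated and was not tested.

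Neighbouring peaks of the Eip75B region lay close together, which largely follows from the count by which it was chosen. The 48 gaps between adjacent edges had a median of 1448 bp and an interquartile range of 524 to 4434 bp, compared with a median of 3440 bp over the rest of the arm. In the region 37 gaps (77.1%) were under 5000 bp, against 58.4% elsewhere, and 47 of 48 (97.9%) were under 10000 bp, against 73.6%. The shortest gaps were no more frequent than elsewhere. Those under 500 bp made up 20.8% in the region and 22.7% over the rest of 3L. The lower median thus went with few long gaps and with more gaps between 500 and 5000 bp.

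**Figure D3:**
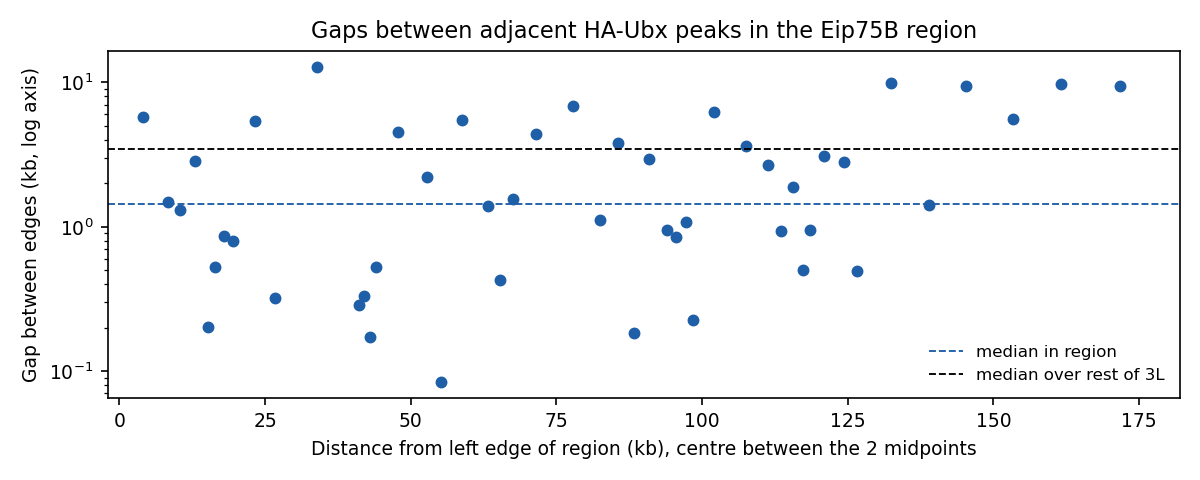
Gap between the edges of adjacent HA-Ubx peaks in kb (y axis, log scale) against the position of the gap along the Eip75B region in kb from its left edge (x axis). Each point is 1 of the 48 gaps, and the dashed lines are the medians of the region (1448 bp) and of the rest of 3L (3440 bp); to the right of 130 kb, 5 of the 6 gaps exceed both lines.

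The closest pair lay at 17954497 to 17955119 and 17955204 to 17955967, 84 bp apart, with scores of 34.4 and 41.7. Gaps under 1000 bp made up 39.6% of the gaps in the region and 28.8% over the rest of 3L. When peaks less than 1000 bp apart were taken as 1 run, the 49 peaks formed 30 runs, of which 19 were single peaks. The other 11 runs held 30 peaks in all. The 2 longest had 5 peaks each, from 17914393 to 17920617 over 6225 bp and from 17940361 to 17944900 over 4540 bp. Scores inside these runs varied widely, from 14.2 to 66.9 in the first and from 12.1 to 65.6 in the second. A peak of the top 10% stood in 6 of the 11 runs, and more than 1 such peak in 2 of them. Single peaks had a median score of 43.6 (19 peaks, 10.6 to 86.1) and peaks in runs one of 33.1 (30 peaks, 10.6 to 101), with ranges that overlapped almost completely. Over the 48 adjacent pairs the scores of neighbours had a Spearman rho of 0.048.

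At the left edge the peak density did not drop at once. The first peak inside, with a score of 24.7 and a midpoint 0.68 kb from the edge, lay 649 bp from the last peak outside, at 17898784 to 17899291, which measured 508 bp and scored 27.9. Towards the right edge the peaks thinned out before the edge was reached, with 1, 1, 2, 1 and 1 peaks in the last 5 bins. The last peak inside, at 18076559 to 18076825, was the narrowest (267 bp) and the weakest (10.6) of the 49. The next peak outside, at 18092777 to 18093450 with a score of 33.5, followed 15951 bp later.

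Among windows of equal length on 3L, the Eip75B region had the most peaks. The arm was divided from its first base into windows of 180 kb, and the 134 complete windows that did not overlap the region held between 0 and 42 peaks, with a median of 15. The 49 peaks were 3.27 times that median. By covered length the region came second, since 1 window, from 540001 to 720000, had 44.3 kb covered by 39 wider peaks (median 877 bp). Medians of score, width and gap were compared with the 117 windows that held at least 5 peaks. The median score of the region was exceeded by 11 of these windows, and their own median was 25.1. Its median width lay in the middle, with 60 windows below and 57 above. Its median gap was shorter than that of 102 windows and longer than that of 15.

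**Figure D4:**
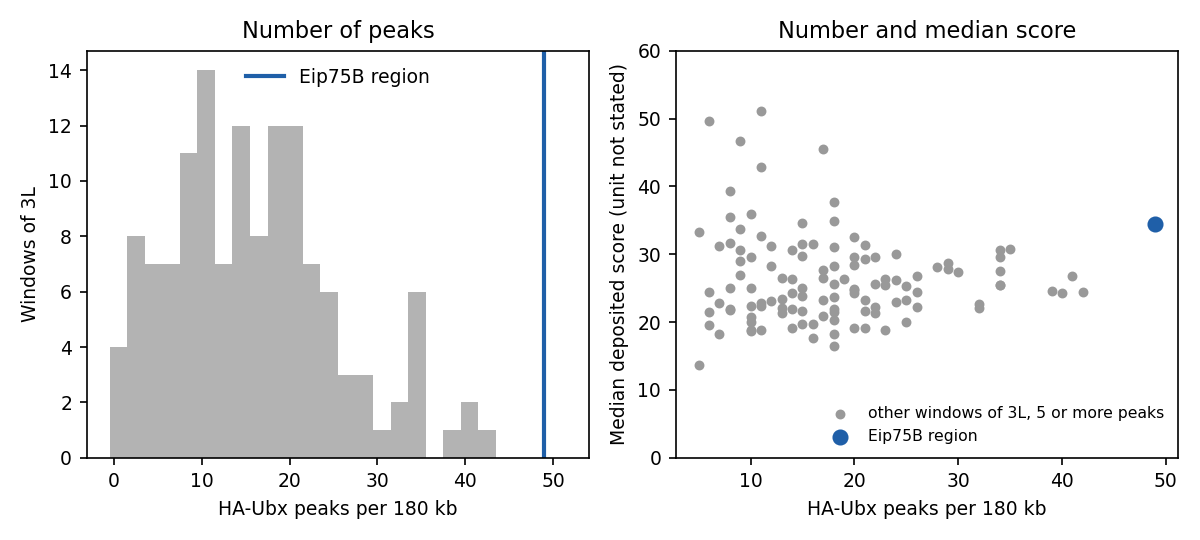
Left, number of the 134 other 180 kb windows of 3L (y axis) by the HA-Ubx peaks they hold (x axis), with the Eip75B region as a blue line at 49. Right, median deposited score (y axis, unit not stated) against number of peaks (x axis) for the 117 windows with at least 5 peaks (grey) and the region (blue), whose median of 34.4 lies above all 13 windows with 30 or more peaks.

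High density and high scores did not go together on the arm in general. Across the 117 windows, which share the list and its unknown depth, the number of peaks and the median score gave Spearman's rho as -0.0078 and Pearson's r as -0.096. The limit of 30 peaks used next was not among the planned settings. The 13 windows with 30 or more peaks had median scores from 22.1 to 30.7, all below the 34.4 of the Eip75B region. In spacing the region lay within their range. Their median gaps ran from 704 to 3505 bp, and only 9 of these windows exceeded the 1448 bp of the region. The fullest of them, from 11160001 to 11340000, held 42 peaks whose median score was 24.5. It was followed by 10620001 to 10800000 with 41 peaks and a median of 26.7, and by 18720001 to 18900000 with 40 peaks and a median of 24.3. Their longest gaps of 16303 to 23159 bp were longer than the 12896 bp of the region. That value depends on where the edges of the region were set, since a gap of 15951 bp spans its right edge and was not counted. Counting only the top 10% of the list, the region held 14, and the 125 other windows in that count held a median of 2 and at most 11.

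The tiled windows were not placed to catch the most peaks, whereas the Eip75B region was drawn around a crowded stretch. When windows of 180 kb were moved along 3L in steps of 10 kb, the fullest one away from the region, from 3290001 to 3470000, held 48 peaks, 1 fewer than the region. The number of peaks therefore hardly set the region apart from that window. Their peaks differed in size and score. In that window they were wider, with a median of 908.5 bp, and covered 52.6 kb, or 29.2% of the length. Their median score was 28.5 and the highest 65.8, and 5 of the 48 (10.4%) belonged to the top 10% of the list. Gaps under 1000 bp made up 55.3% of the gaps there and 39.6% in the Eip75B region. In shorter stretches the order turned: the fullest 100 kb of the region held 34 peaks and the fullest elsewhere on the arm 37, and for 50 kb the numbers were 19 and 25.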

How the data were processed

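HA-Ubx chromatin immunoprecipitation followed by sequencing was analysed from 1 deposited list of 10337 peaks, which the labels of both replicates name. Reads were aligned with BWA 0.7.12 to dm3 and peaks were called with MACS2, going by the tools named in the submitters' processing notes. The way replicates and input entered the calling, and its thresholds, are not given here. The score of each peak was used as deposited, per the labels' list, to describe and rank peaks within it. Coordinates are 1-based dm3 positions, and none was converted. A dm3 genome was not used here, so no peak sequence or motif is given, and the planned search of the Eip75B promoter was not made.

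The members, lists and comparisons were chosen with earlier results of these data known. Named peaks are the 5 strongest, the 3 widest, the first and last, the closest pair and those beside the longest gap and the edges. Named windows are the 3 fullest others. The window from 3290001 to 3470000, the most covered window and further peaks beside the strongest were chosen after their values were seen. Windows and bins took peaks by midpoint, and covered length was counted inside each window. Medians used windows with at least 5 peaks. The functions were tested on simulated data. Python 3.11.15 was used with pandas 2.3.3, scipy 1.17.1, matplotlib 3.10.9 and numpy 2.4.6.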

Additional observations from a re-analysis of the deposited data

How the results depend on the processing

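The 49 peaks of the Eip75B region were the highest count in every alternative run except the region 20 kb shorter at each edge, where its 39 peaks were equalled by 2 windows. Of 96 recalculated values, 79 stayed within set limits. The limit was 1.5 times for counts and covered length, and the exact binomial 95% interval for medians. For the share of windows below it was the Wilson 95% interval. These intervals treat peaks and windows of 1 list as independent and hold no replicate error. The 79 include values that could not move. The region's own values do not depend on the windows beside it. Its lowest score was 10.6, so leaving out peaks under 5 changed none of them. Among the strongest 25% of peaks the count was 23 and the covered length 16497 bp, by construction. The median score was 60.4 and the median gap 5108.5 bp, also by construction. In that setting 100% of 129 windows were less covered. Of the 51 windows that still held at least 5 such peaks, 76.5% scored lower and 25.5% were narrower. Among the strongest 50% these shares were 100% of 133 windows, and 78.1% and 25% of 96 windows. Of those 96, 3.12% had a shorter median gap. The main comparison used 134 windows for covered length and 117 for medians. In it 1 window was more covered than the region. With windows stepped by 10 kb, which overlap one another, 33 of 2401 were more covered. The number was 2 of 134 with windows in phase with the region, and 2 of 657 with windows of 5 arms. With peaks less than 1000 bp apart joined, the count was 30, the median width 965 bp and the median gap 3656 bp. In that setting 97.3% of windows scored lower and 72.7% were narrower. A joined peak took the highest score of its members, so the 97.3% is not on the same footing as the 90.6% for unjoined peaks. The fullest bin held 9 peaks with 20 kb bins. The windows in phase with the region and the setting without scores of more than 5 decimals were chosen after seeing the data. Leaving out a replicate was not possible, and read depth was not given. No paired analysis was possible because both replicates share 1 list.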
